A study of Mus musculus with 2 samples.

Results

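The miR-17-92 cluster on mouse chromosome 14 and its paralog miR-106b-25, which lies in an intron of the replication gene Mcm7, were examined in small RNA of the adrenal gland. The 9 miRNA genes were chosen by name, not by level: Mir17, Mir18, Mir19a, Mir20a, Mir19b-1 and Mir92-1 of the first cluster, and Mir106b, Mir93 and Mir25 of the second. All 9 were found among the 2202 miRNA genes of both count tables. The study sequenced microRNA-sized RNA, below 30 nucleotides, from adrenal glands of female B6CASTF1/J mice aged 25 days. Such mice carry a C57BL/6 and a CAST chromosome set, and the effect of CAST variants on the mapping of the members' reads was not tested. The samples formed 1 group of 2 libraries with no treatment, no mutant allele and no contrast, so libraries 1 and 2 are set side by side below. The labels number the glands as separate animals yet give both the same donor identifier, so each SD measures the spread between these libraries, which may be technical.

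Library 1 had 2244073 reads on the strand of miRNA genes and library 2 had 3912280. Levels are normalised read counts (CPM), reads of a gene per 1000000 such reads, in which 1 read is worth 0.446 CPM in library 1 and 0.256 CPM in library 2. Each read is about as long as a mature miRNA, so no length scaling was applied. The efficiency with which each sequence enters a library was not measured. Without molecular identifiers, PCR copies of a molecule count as separate reads, so every interval covers counting error only.

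A miRNA cluster is transcribed as 1 primary transcript, which the enzymes Drosha and Dicer cut into separate hairpins and then mature miRNAs. Each mature miRNA guides Argonaute to messenger RNAs that pair with its seed, bases 2 to 8 from the 5′ end. The chromosome 14 cluster is induced by MYC and E2F factors, promotes cell growth and survival and is known as an oncogene in lymphoma. Its seed families differ in their targets, and the miR-17 family represses cell cycle inhibitors such as Cdkn1a. The Mcm7 intron cluster is transcribed with Mcm7, a subunit of the helicase that opens DNA for replication.

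The guide strands of the 9 genes are shown because the comparisons by seed rest on them, with the seed in capitals. The arm given is the one known as the dominant product, and all 9 were matched in RefSeq (GRCm38.p6). The counts are per gene and do not separate the arms.
Mir17, miR-17-5p: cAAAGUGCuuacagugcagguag
Mir20a, miR-20a-5p: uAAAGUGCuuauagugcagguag
Mir106b, miR-106b-5p: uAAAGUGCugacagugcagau
Mir93, miR-93-5p: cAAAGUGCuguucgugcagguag
Mir18, miR-18a-5p: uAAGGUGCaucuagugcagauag
Mir19a, miR-19a-3p: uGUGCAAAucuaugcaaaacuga
Mir19b-1, miR-19b-3p: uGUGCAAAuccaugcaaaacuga
Mir92-1, miR-92a-3p: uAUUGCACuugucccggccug
Mir25, miR-25-3p: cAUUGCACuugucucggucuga

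The seeds put Mir17, Mir20a, Mir106b and Mir93 in the miR-17 family, Mir92-1 and Mir25 in the miR-92 family, Mir19a and Mir19b-1 in the miR-19 family and Mir18 alone in the miR-18 family. Both clusters thus hold the miR-17 and miR-92 seeds, and the chromosome 14 cluster alone of these holds the miR-18 and miR-19 seeds. Counted from 1 at the 5′ end, the guide of Mir17 differs from that of Mir20a by C1U and C12U. The guide of Mir19a differs from that of Mir19b-1 by U11C alone. The guides of Mir92-1 and Mir25 differ at 3 of the 21 bases compared, all outside the seed.

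In mm10 coordinates with the GENCODE M21 annotation, the chromosome 14 hairpins span 836 bases of the plus strand, from base 115043671 to 115044506. All 6 lie within exon 2 of the long noncoding RNA gene Mir17hg. Mir17 (ENSMUSG00000065508.1) comes first, at bases 115043671 to 115043754, and Mir92-1 (ENSMUSG00000076062.1) last, at bases 115044427 to 115044506. The Mcm7 cluster spans 498 bases of the minus strand of chromosome 5, from base 138165321 to 138165818. Its 3 hairpins lie in intron 13 of the protein-coding transcript of Mcm7 that has 15 exons. Mir93 (ENSMUSG00000065527.1) and Mir25 (ENSMUSG00000065394.1) also lie in exon 1 of a noncoding Mcm7 transcript with a retained intron, and Mir106b (ENSMUSG00000065514.1) lies outside it.

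Identical copies of a guide matter for these counts, since a read with more than 1 mapping place was counted for no gene. Such reads made up 28.4% of all reads of library 1 and 27.5% of library 2. The guide of Mir92-1 is identical to that of Mir92-2, and the guide of Mir19b-1 to that of Mir19b-2, both in a paralogous cluster on the X chromosome. The pairs are printed with 4 flanking bases on each side to show where a read can tell the genes apart, with the differing bases in capitals.
Mir92-1: aUGguauugcacuugucccggccugUUga
Mir92-2: aAAguauugcacuugucccggccugAGga
Mir19b-1: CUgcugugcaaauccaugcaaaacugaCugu
Mir19b-2: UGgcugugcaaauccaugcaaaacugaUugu
The identical stretch has 22 bases in the first pair and 25 in the second, and in both it covers the whole guide. Reads wholly inside these stretches are missing from the counts, and how many reads of Mir92-1 and Mir19b-1 were lost in this way was not measured. The guides of the other 7 genes were found in no other miRNA gene. The longest stretch their hairpins share with another miRNA hairpin ranged from 12 bases for Mir25 to 17 bases for Mir18 and Mir20a.

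Together the 9 genes took 0.995% of the miRNA reads in library 1 and 1.26% in library 2, a mean of 1.13 ± 0.187% (SD, n = 2). With 10 or more reads in each library taken as detected, 7 of the 9 were detected. Both exceptions carry the miR-19 seed.

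Mir17, which heads the chromosome 14 cluster, had 2810 CPM in library 1 and 3973 CPM in library 2, a mean of 3392 ± 822 CPM (SD, n = 2). It ranked 42 of the 2202 genes by mean level. Mir93, the middle gene of the Mcm7 cluster, had 2962 CPM in library 1 and 3698 CPM in library 2, a mean of 3330 ± 521 CPM (SD, n = 2), and ranked 43. The leading genes of both clusters thus stood next to each other, and their ranges over the libraries overlapped. Mir20a had 1082 CPM in library 1 and 1932 CPM in library 2, and Mir106b had 1336 CPM and 1578 CPM. These too overlapped, with means of 1507 ± 601 CPM and 1457 ± 171 CPM (SD, n = 2).

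Mir92-1, the last gene of the chromosome 14 cluster and known for restraining blood vessel growth, had 1123 CPM in library 1 and 714 CPM in library 2. It was the 1 member with the lower level in library 2. Mir25, the other carrier of the miR-92 seed, had 364 and 377 CPM, the closest values among the 7 detected members. Mir18 had 277 CPM in library 1 and 322 CPM in library 2. In the order by mean level, Mir17, Mir93, Mir20a, Mir106b, Mir92-1, Mir25, Mir18, Mir19a and Mir19b-1, each neighbour was separate from the next over both libraries except in 3 places. Mir17 and Mir93, Mir20a and Mir106b, and Mir19a and Mir19b-1 were not separate. This order is by counted reads. Reads of the whole guides of Mir92-1 and Mir19b-1 were not counted, so their levels may be too low and their places are uncertain.

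**Figure D1:**
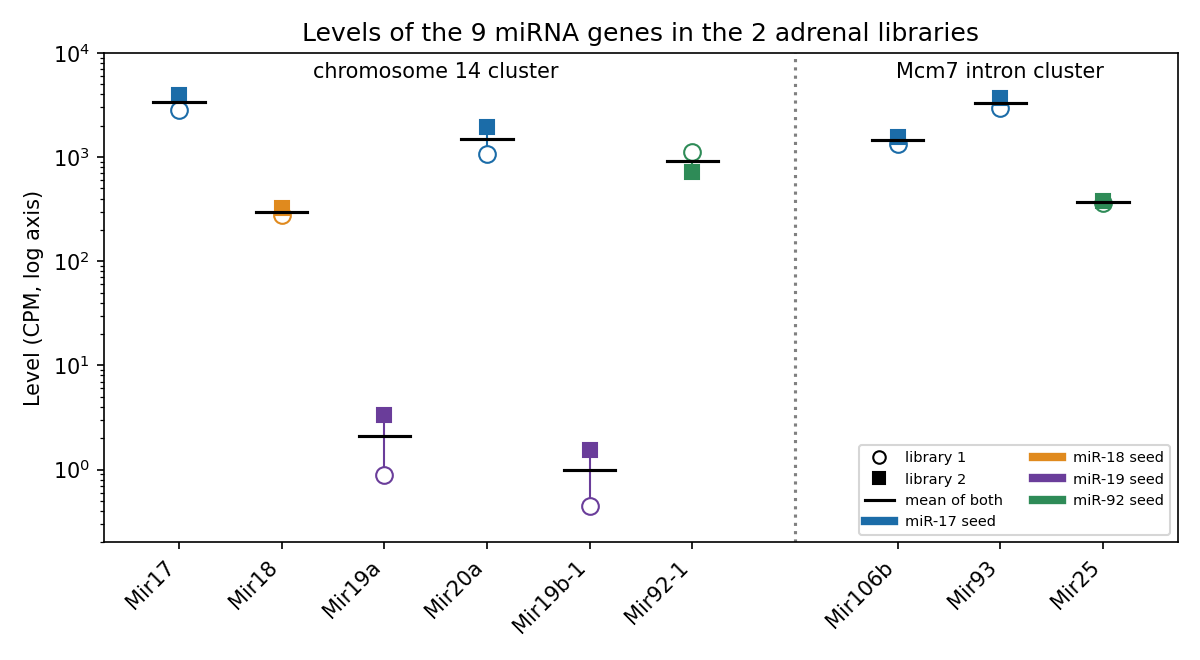
Level of each of the 9 genes in CPM on a log axis, with library 1 as open circles, library 2 as squares and the mean as a black bar, coloured by seed family. The 7 detected genes lie between 277 and 3973 CPM, and Mir19a and Mir19b-1 lie below 4 CPM.

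The miR-19 genes stood far below their neighbours in the same exon. Mir19a had 2 reads in library 1 and 13 in library 2, or 0.891 and 3.32 CPM. Mir19b-1 had 1 and 6 reads, or 0.446 and 1.53 CPM. In library 2 Mir17 had 1196 times the reads of Mir19a (exact 95% interval 699 to 2246). In library 1, with 2 reads of Mir19a, the ratio was 3153 (872 to 26041). For Mir19b-1 the shared stretch of 25 bases covers the whole guide. Mir19a has no such copy among miRNA genes: its guide was found among annotated transcripts only in Mir19a and its host Mir17hg, and its hairpin shares at most 13 bases with another miRNA hairpin. Copies outside annotated transcripts were not searched. As given above, the guides of Mir19a and Mir19b-1 differ by U11C alone, and whether reads passed between these genes was not tested. How well the miR-19 sequences enter a library was not measured, and the cause of the low counts was not tested.

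**Figure D2:**
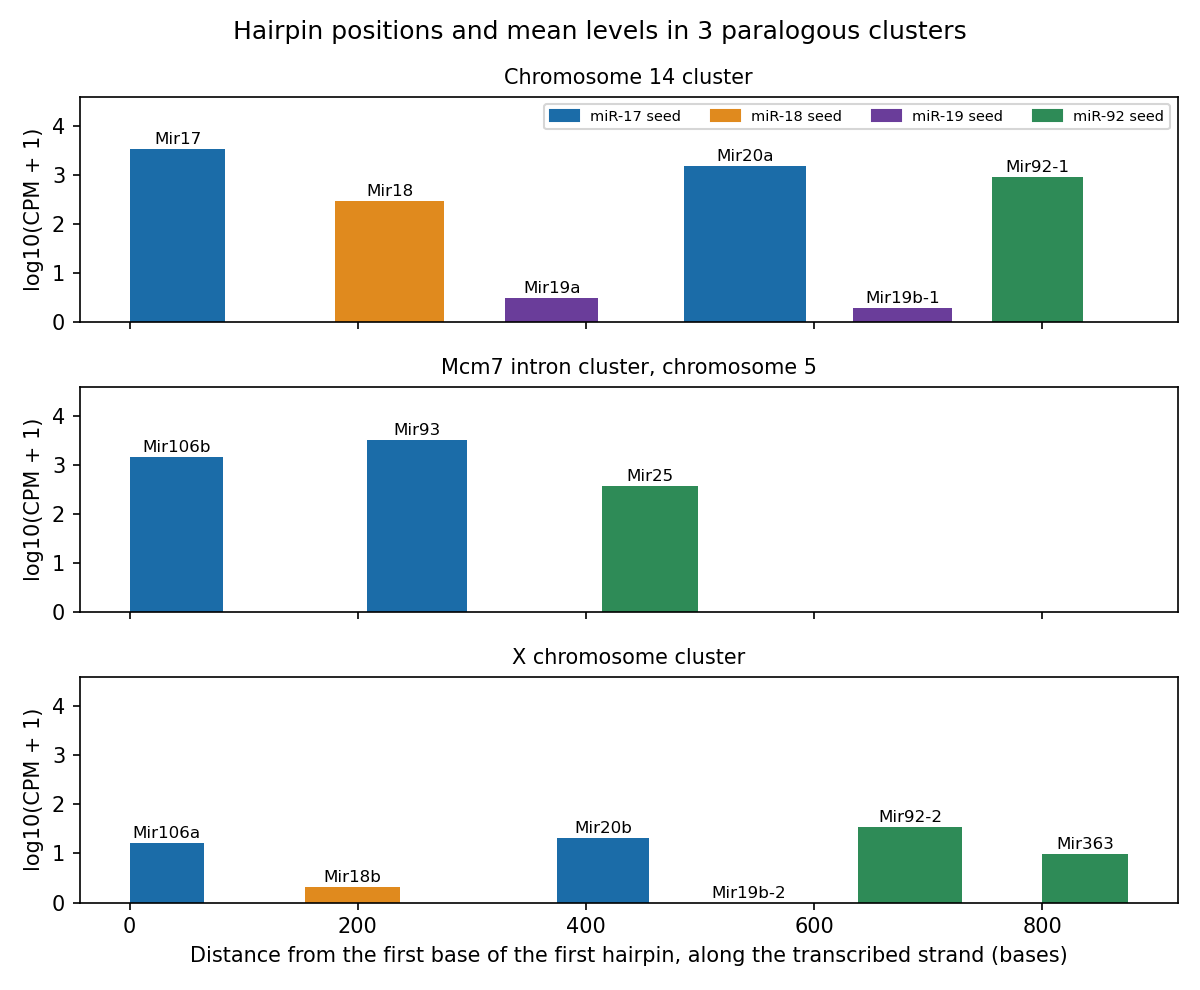
Hairpins of the chromosome 14, Mcm7 intron and X chromosome clusters drawn to scale along the transcribed strand, in bases from the first hairpin, with bar height the log10 of mean CPM plus 1 and colour the seed family. Mir19a and Mir19b-1 stand as low bars between Mir18, Mir20a and Mir92-1 on chromosome 14, and Mir19b-2 has no bar.

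The direct comparison of the clusters gave nearly equal totals of counted reads. The 6 chromosome 14 genes had 11877 reads in library 1 and 27175 in library 2, against 10461 and 22117 for the 3 Mcm7 intron genes. The chromosome 14 genes therefore held 53.2% of the reads of both clusters in library 1 (95% Wilson interval 52.5 to 53.8%) and 55.1% in library 2 (54.7 to 55.6%). The mean share was 54.2 ± 1.39% (SD, n = 2). Both libraries lay on the same side of an even split. Without Mir92-1 and Mir19b-1, whose guides have identical copies, the mean share was 49.8% and the libraries split. The chromosome 14 share was then 47.2% in library 1 (46.5 to 47.9%) and 52.4% in library 2 (52.0 to 52.9%). The order of the clusters thus turned in library 1 and held in library 2 under this removal. The removal takes reads from the chromosome 14 side alone and keeps Mir25, the other miR-92 carrier, so it compares unlike sets of genes. Reads inside the shared stretches are also missing from the chromosome 14 side alone, so its counted share may be too low. With 2 libraries a paired exact test cannot reach a p under 0.05, and none was run.

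By seed family, the miR-17 family held most of the counted reads in both clusters. It took 82.3% of the reads of all members in library 1 and 88.7% in library 2, a mean of 85.5 ± 4.58% (SD, n = 2). The miR-92 family took 14.9% and 8.66%, a mean of 11.8 ± 4.44%, and the miR-18 family 2.78% and 2.56%, a mean of 2.67 ± 0.16% (SD, n = 2). The miR-19 family held 3 of 22338 reads in library 1 and 19 of 49292 in library 2. Mir92-1 weighs on these shares as well: without it and Mir19b-1 the means were 93.4% for the miR-17 family and 3.65% for the miR-92 family. Reads of the whole guides of these 2 genes were counted for no gene. The miR-92 and miR-19 shares may thus be too low and the miR-17 share too high, by an amount not measured.

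Within the miR-17 family the sources were close to even. The chromosome 14 genes Mir17 and Mir20a supplied 47.5% of these reads in library 1 (95% Wilson interval 46.8 to 48.2%) and 52.8% in library 2 (52.3 to 53.3%), the rest coming from Mir106b and Mir93. The mean share was 50.2 ± 3.74% (SD, n = 2), and the libraries fell on opposite sides of an even split. In the miR-92 family Mir92-1 supplied more than Mir25 in both libraries, with 75.5% in library 1 (74.0 to 76.9%) and 65.4% in library 2 (64.0 to 66.8%), even though reads inside its shared stretch are missing.

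In counted reads, the make-up of the Mcm7 cluster by seed family moved less between the libraries than that of the chromosome 14 cluster. In the Mcm7 cluster the miR-17 family held 92.2% and 93.3% of the reads, and Mir25 held 7.81% and 6.67%. In the chromosome 14 cluster the miR-17 family went from 73.5% in library 1 to 85.0% in library 2, and Mir92-1 from 21.2% to 10.3%. Mir18 stayed at 5.24% and 4.64%. The difference in movement between the clusters was not tested, since each library gives 1 value. Mir92-1 weighs on the chromosome 14 shares, and its reads inside the shared stretch are missing. Without Mir92-1 and Mir19b-1, 8733 of 9357 chromosome 14 reads in library 1 were of the miR-17 family, and 23103 of 24377 in library 2. The larger movement of the chromosome 14 cluster thus lay mostly with Mir92-1.

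**Figure D3:**
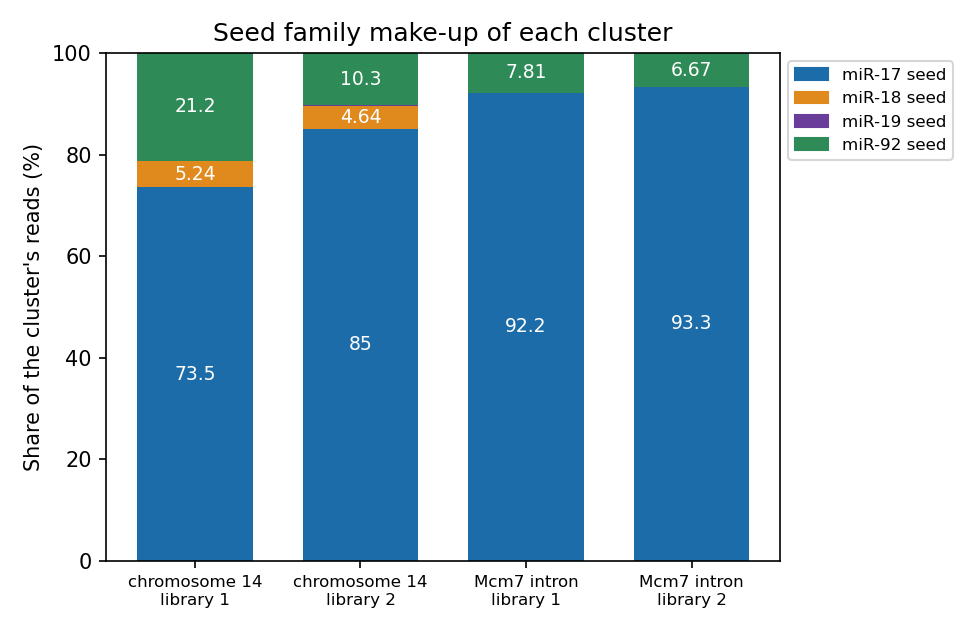
Share of each cluster's reads by seed family, in percent, as 1 stacked bar for each cluster and library. The miR-92 part is 21.2% and 10.3% on chromosome 14 and 7.81% and 6.67% in the Mcm7 intron, and the miR-19 part is too thin to see.

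Between the libraries, 5 of the 8 members tested were higher in library 2 and 1 was higher in library 1 at an adjusted p under 0.05. The test was a two-sided exact binomial test of each gene with 10 or more reads in all, scaled by edgeR's TMM and adjusted over all 411 genes tested. It compares these libraries, not conditions. Over all genes, 58.4% passed, with 29.4% higher in library 2 and 29.0% higher in library 1. The median log2 ratio of library 2 over library 1 was 0.37 over the members and -0.07 over all genes tested. Mir19b-1, with 7 reads in all, was not tested. Of all the genes called, 50.4% were higher in library 2, and with no filter on low counts 61.7% were, a setting that shifted all log2 ratios by 0.17. With scaling by library size alone the share was 42.9%.

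Mir20a had the largest log2 ratio of the detected members, 0.92 (95% counting interval 0.86 to 0.99), from 2427 and 7559 reads (exact binomial test, adjusted p = 2.48e-181). Mir17 followed with a log2 ratio of 0.59 (0.54 to 0.63), from 6306 and 15544 reads. Mir93 had 0.41 (0.36 to 0.45), Mir106b 0.33 (0.26 to 0.39) and Mir18 0.30 (0.16 to 0.44). All 4 genes of the miR-17 family were thus higher in library 2. Mir92-1 went the other way with a log2 ratio of -0.57 (-0.65 to -0.49), from 2519 and 2792 reads (exact binomial test, adjusted p = 3.9e-45).

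Mir25 had a log2 ratio of 0.14 (0.01 to 0.26) and did not pass (exact binomial test, adjusted p = 0.0506). It passed with DESeq2 size factors (log2 ratio 0.20, adjusted p = 0.00297), with no filter on low counts and with a minimum of 100 reads per library. Mir19a, with 15 reads in all, had a log2 ratio of 1.72 with an interval from -0.23 to 3.66 and did not pass (exact binomial test, adjusted p = 0.0998). When calls also had to reach 1.5-fold, 2 members remained, Mir17 and Mir20a, both higher in library 2. Over all tested genes 31.4% met both limits, 15.1% higher in library 2 and 16.3% higher in library 1. With no filter on low counts, the share of such genes that were higher in library 2 went from 48.1% to 66.4%, and with scaling by library size alone to 38.5%. Mir17 lay just inside the fold limit at 1.5-fold and Mir92-1 just outside it at 1.48-fold. With scaling by library size alone they changed places, with Mir17 at 1.41-fold and Mir92-1 at 1.57-fold, which left 1 member called in each direction. With unstranded counts Mir17 fell short as well, and Mir20a was called alone.

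The binomial test takes counting error alone. In edgeR's exact test with the spread that all genes showed between these libraries (a biological coefficient of variation of 0.387), 0 of the 8 tested members passed, each with an adjusted p of 1. That test called 5 of 411 genes, and no member had an unadjusted p under 0.05. Its spread was estimated from the same libraries that it compares, so the differences enter the spread and few genes can pass. It therefore cannot show that the members were unchanged. The 7 detected members lay within the 5th to 95th percentile of the log2 ratios of all 337 detected genes, from -1.14 to 1.11.

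**Figure D4:**
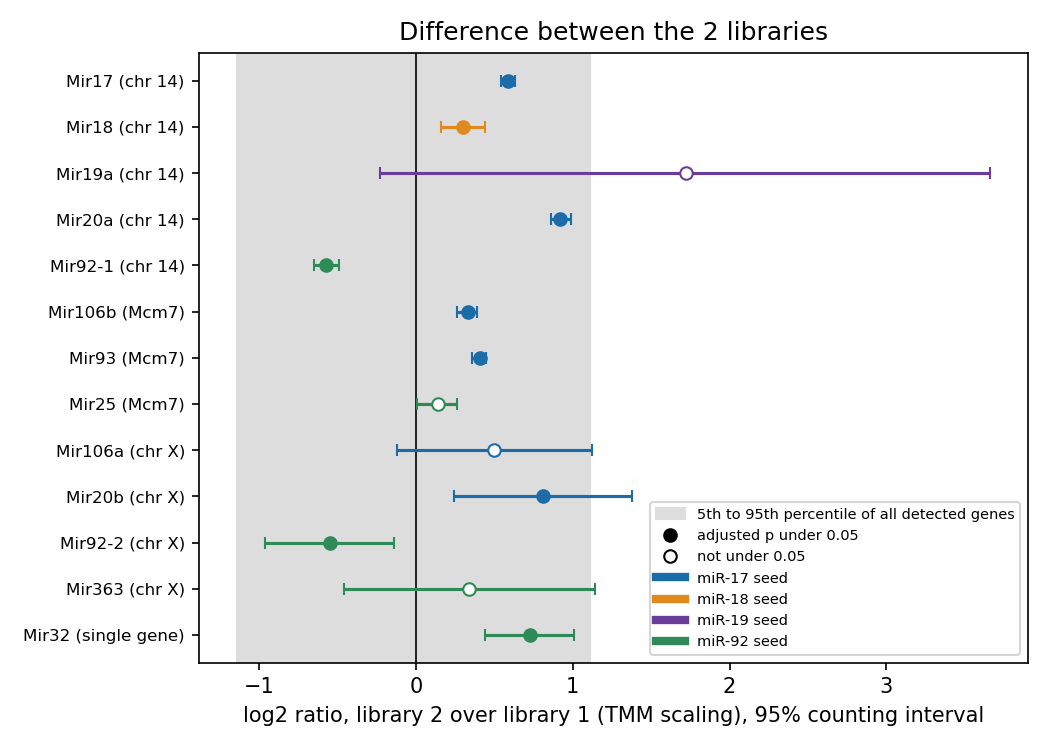
Log2 ratio of library 2 over library 1 with 95% counting intervals for the tested members, the tested genes of the X chromosome cluster and Mir32, filled where the adjusted p is under 0.05, over a grey band from -1.14 to 1.11 that holds the middle of all detected genes. Mir92-1 and Mir92-2 lie left of 0, and the other genes lie right of it.

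Ratios within a library need no scaling between libraries, and most of those between cluster mates differed between the libraries beyond counting error. On counting error alone 58.4% of all genes tested also differed, and the share of all gene pairs that did so was not computed. Mir17 had 2.5 times the reads of Mir92-1 in library 1 (exact 95% interval 2.39 to 2.62) and 5.57 times in library 2 (5.35 to 5.80). Mir20a had 0.963 times the reads of Mir92-1 in library 1 (0.911 to 1.02) and 2.71 times in library 2 (2.59 to 2.83). The intervals of the libraries did not overlap in either case. Both ratios are taken over Mir92-1, whose reads inside the shared stretch are missing. The ratios between the other genes given here moved less. Mir17 had 2.6 times the reads of Mir20a in library 1 (2.48 to 2.72) and 2.06 times in library 2 (2.00 to 2.11), and 10.1 times (9.34 to 11.0) and 12.3 times (11.6 to 13.1) the reads of Mir18, without overlap between the libraries. In the Mcm7 intron, Mir93 had 8.13 times the reads of Mir25 in library 1 (7.56 to 8.76) and 9.8 times in library 2 (9.29 to 10.3), again without overlap. Mir93 had 2.22 times the reads of Mir106b in library 1 (2.12 to 2.32) and 2.34 times in library 2 (2.28 to 2.42), and these intervals overlapped.

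Markers of other cell types also differed between the libraries, as did 58.4% of all genes tested when counting error alone was taken. The 3 erythroid genes Mir451a, Mir144 and Mir486 were all detected and summed to 680 CPM in library 1 and 25715 CPM in library 2. Of these Mir486 was higher in library 1, and the other genes in library 2. The endothelial gene Mir126a had 53763 and 121007 CPM. The hepatocyte gene Mir122 had 5185 and 491 CPM. The 5 leukocyte genes, all detected, summed to 2126 and 1612 CPM, with 1 called higher in library 2 and 3 in library 1, and the 3 neuroendocrine genes Mir375, Mir7b and Mir7-1, all detected, to 41756 and 42440 CPM. Of 4 smooth muscle and fibroblast genes all but Mir199a-1, with 0 and 1 reads, were detected, with a sum of 28920 and 41791 CPM. Of these Mir143 was called higher in library 2 and Mir214 in library 1, and the median log2 ratio was -0.02. None of 5 striated muscle genes was detected, and Mir1a-1, Mir1a-2, Mir133a-1 and Mir133a-2 had 0 reads in both libraries. Reads with more than 1 mapping place were counted for no gene, and copies of the marker genes' mature sequences were not searched. The counts of 0 and 1 reads for marker genes thus set no limit on their levels. The part of these cell types in the members' differences was not tested, and in whole glands fewer cells of a type and less RNA per cell cannot be told apart.

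The other genes with a seed of these families were all below the 7 detected members, though several were above Mir19a and Mir19b-1. Of the mature arms in RefSeq, those of 19 genes carry 1 of the 4 seeds: the 9 members, the 6 genes of the X chromosome cluster, Mir32 and 3 others. The X chromosome cluster Mir106a to Mir363 (bases 52741693 to 52742567, minus strand) is a further paralog with the same 4 seeds. It holds no counterpart of Mir19a, has Mir363 as a further miR-92 carrier and is little expressed in most adult tissue. Its 6 genes summed to 173 reads in library 1 and 306 in library 2. The chromosome 14 cluster had 68.7 times as many in library 1 (exact 95% interval 59.1 to 80.2) and 88.8 times as many in library 2 (79.3 to 99.7).

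Of its 6 genes 4 were detected and tested, with 1 higher in library 2 (Mir20b), 1 higher in library 1 (Mir92-2) and a median log2 ratio of 0.42. Over all genes tested, 58.4% were called in either direction. In the X chromosome cluster, levels were low. Mir92-2 was the highest at 40.1 and 25.8 CPM, with the shared stretch missing from its count too. Mir20b had 14.7 and 24.5 CPM, Mir106a 12.9 and 17.4 CPM and Mir363 8.02 and 9.71 CPM. Mir18b had 3 reads in each library. Mir19b-2 had 0 reads in both, which sets no limit on its level, since reads of its whole guide lie inside the stretch shared with Mir19b-1.

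The X chromosome genes were compared with their closest relative on chromosome 14. Mir17 had 217 times the reads of Mir106a in library 1 (exact 95% interval 151 to 325) and 229 times in library 2 (180 to 295). Their guides differ by U10A alone. Mir20a had 73.5 times the reads of Mir20b (52.2 to 107) and 78.7 times (64.4 to 97.3), with guides that differ by U1C and U10C. Mir92-1 had 28 times the reads of Mir92-2 (22.7 to 34.9) and 27.6 times (22.7 to 34.1). Mir18 had 207 times the reads of Mir18b in library 1 (70.6 to 1008) and 420 times in library 2 (144 to 2041), with 3 reads of Mir18b in each. Each pair's intervals overlapped between the libraries, and for Mir18b they are too wide to show a change. Genes this alike can take reads from each other, so the low counts on the X chromosome are uncertain, and how many reads were so placed was not tested.

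Mir32, a single gene with the miR-92 seed, had 59.3 CPM in library 1 and 92.5 CPM in library 2 (log2 ratio 0.73, interval 0.44 to 1.01) and was called higher in library 2. Mir92b had 19.2 and 15.8 CPM, and its log2 ratio of -0.19 (-0.75 to 0.37) did not pass. Mir6383 and Mir367, the remaining carriers, had 0 reads in both libraries. The seeds thus went both ways between the libraries: of the miR-92 carriers Mir92-1 and Mir92-2 were higher in library 1 and Mir32 in library 2.

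The embryonic stem cell clusters, whose main seed overlaps that of the miR-17 family, were at low levels as well. The 9 genes from Mir290a to Mir295 summed to 97.1 and 68.2 CPM. Of the 4 tested there, 1 was called, higher in library 1 (Mir292). The 5 genes from Mir302a to Mir367 summed to 58.8 and 126 CPM, and of the 4 tested there 3 were called higher in library 2. These were Mir302a (log2 ratio 1.02), Mir302b (0.98) and Mir302d (1.43). Over all genes tested, 29.4% were called higher in library 2 and 29.0% higher in library 1, on counting error alone.

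Outside these lists, the genes closest to Mir17 over the log2 CPM values of both libraries were Mir28a (distance 0.373), Mir107 (0.387) and Mir29a (0.400). Closest to Mir93 were Mir28a (0.305), Mir29a (0.308) and Mir320 (0.425). A distance over 2 libraries reflects mostly the level, and Mir28a, with 3638 and 3891 CPM, was near both leading members.

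**Figure D5:**
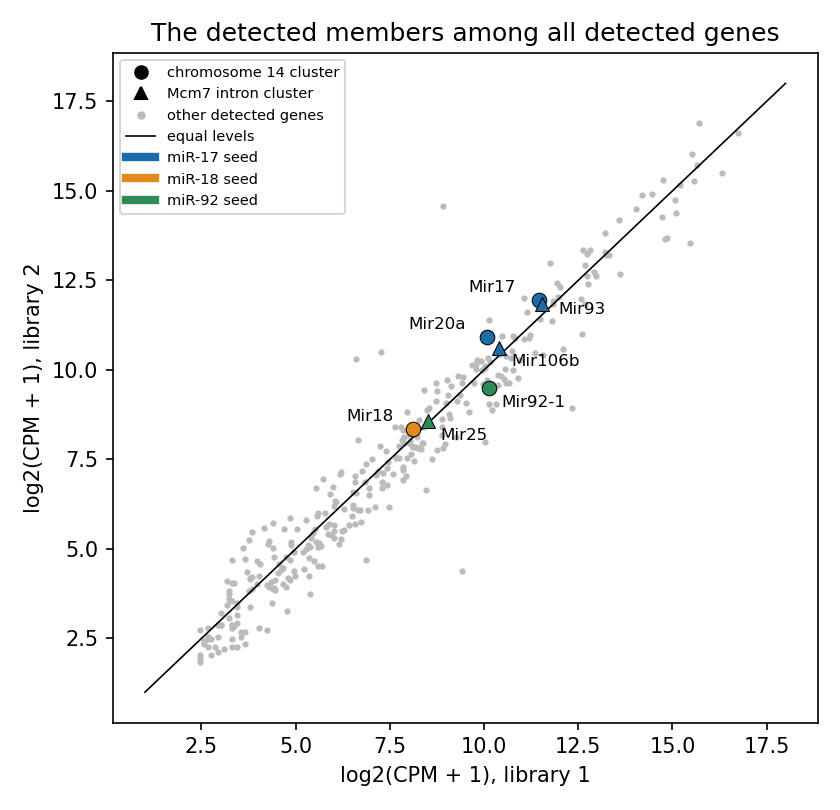
Log2 of CPM plus 1 in library 2 against library 1 for the 337 detected genes in grey, with the 7 detected members coloured by seed family, circles for chromosome 14 and triangles for the Mcm7 intron. Mir17 and Mir93 lie side by side, and Mir92-1 is the 1 detected member below the line of equal levels.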

How the data were processed

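For each library the authors deposited raw counts of reads by miRNA gene, from reads mapped to mm10 per the labels and counted on GENCODE M21 per the text deposited beside them. Which aligner and counter were used was not given in the sources used here. Columns are unnamed. The first stranded column, with the larger total, was taken as the gene strand, as inferred from the layout. Library sizes leave out the rows without a gene, which hold unmapped reads (33.8% and 27.8%), multimapped reads (28.4% and 27.5%) and reads off the annotated miRNA genes (9.57% and 9.53%). All 2202 identifiers were found in GENCODE M21.

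From the counts, CPM, Wilson and exact 95% intervals, and log2 ratios with 0.5 read added were computed with Python 3.11.15, scipy 1.17.1, R 4.3.3, edgeR 4.0.16 and DESeq2 1.42.0. With 1 group there is no coefficient for a quasi-likelihood test, so genes whose reads summed to 10 or more were tested with an exact binomial test at edgeR's TMM effective library sizes, adjusted by Benjamini and Hochberg. The test was checked on simulated counts with known differences and counting error only, so that check does not cover spread between libraries. Alternatives were other scalings, filters, unstranded counts, edgeR's exact test and leaving out each library. The named genes are the 9 members, their X chromosome paralogs, other carriers of the seeds, 2 embryonic clusters, cell type markers and the 3 nearest genes to each leading member. The members and lists were chosen with earlier results of these data known.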

Additional observations from a re-analysis of the deposited data

How the results depend on the processing

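No paired analysis was possible because both libraries belong to a single group. Of 56 log2 ratios of members under other settings, all kept their sign, 46 also kept their side of the threshold, 4 passed newly (Mir25) and 6 no longer passed, all 6 under edgeR's exact test with the common spread. That test called 5 of 411 genes, 5 with 1.5-fold or more, 0 members higher in library 2 and 0 higher in library 1. At an unadjusted p under 0.05 it had 12 genes, with its spread estimated from the same libraries that it compares. Requiring 100 or more reads in each library left 82 genes called at 1.5-fold, with 223 tested in place of 411. The share of called genes that were higher in library 2 was 50.4% and became 61.7% with no filter on low counts, which shifted all log2 ratios by 0.17. It was 42.9% with scaling by library size alone, which shifted them by -0.09. Leaving out the members that have an identical copy of the guide takes genes from the chromosome 14 cluster alone. The mean share of that cluster was then 49.8%, and those of the miR-17, miR-18 and miR-92 families were 93.4%, 2.93% and 3.65%. With single libraries the chromosome 14 share ranged from 53.2 to 55.1%, the miR-17 share from 82.3 to 88.7% and the miR-92 share from 8.66 to 14.9%. Scaling by library sizes without Mir451a, Mir144 and Mir126a was chosen after seeing the data. It moved the log2 ratios by 0.06 and called 6 members higher in library 2. Depth limits Mir19a and the X chromosome genes with few reads, whose intervals are wide. For Mir92-1, Mir92-2, Mir19b-1 and Mir19b-2, reads inside the shared stretches are missing at any depth.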

Other observations

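Reads on the strand opposite to the members were outside the counts used above. Of the 9 genes only Mir25 had any, with 1 read in library 1. The unstranded counts of the members were therefore the same as those on the gene strand, except for that read.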
